A study of Homo sapiens with 18 samples.

Results

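WDR5, RBBP5, ASH2L and DPY30 form the WRAD module shared by the KMT2 and SETD1 complexes, the enzymes that methylate histone H3 at H3K4. WDR5B is the closest paralog of WDR5. The 5 genes were taken from the table of 58815 genes by symbol, and all 5 were among the 12339 genes whose counts were high enough to be tested. RNA sequencing covered 3 metastatic derivatives of MDA-MB-231, an established triple-negative breast cancer cell line: LM2, which was derived from lung metastases in mice, BrM3 from brain and BoM from bone. The cells carried either a control hairpin (shCtrl) or 1 hairpin against WDR5 (shWDR5-1, written shWDR5 here) under a doxycycline-inducible promoter, and both kinds of cells were kept in doxycycline (1 μg/mL) over 3 days of induction. There were 3 libraries in each of the 6 groups, harvested at different passages of the same line, so the spread between them is a spread between passages. With 1 hairpin against WDR5, an effect of the loss of WDR5 and another effect of that hairpin cannot be told apart.

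WDR5 is a ring-shaped WD-repeat scaffold protein that binds the catalytic subunit and RBBP5 on different faces. RBBP5 and ASH2L contact each other and the catalytic domain, and DPY30 binds ASH2L. WDR5 is also a subunit of the NSL and ATAC acetyltransferase complexes, which hold no RBBP5, ASH2L or DPY30, and it binds the transcription factor MYC.

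WDR5 (ENSG00000196363) lies at chr9:134135365-134159968 on the plus strand of GRCh38 and has up to 14 exons per transcript. WDR5B (ENSG00000196981) lies at chr3:122411846-122416062 on the minus strand and is a gene of 1 exon. Their reference coding sequences, of 1002 and 990 bases, matched at 803 of 990 aligned bases (81.1%), and the longest identical stretch was 30 bases. The study lists 2 hairpins against WDR5, each with a 19-base target, and the sources used here do not give which of them is shWDR5-1. The V2LHS_140181 hairpin is the one marked as used in the screen. Both targets are shown with the WDR5B site that had the fewest mismatches, because WDR5B is the other of the paralogs. Capitals mark mismatched bases, and positions are counted from the 5′ end of the target.

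V2LHS_140181, WDR5, chr9:134157903-134157921, plus strand: ctcaacagcttgtcaccca
V2LHS_140181, WDR5B, chr3:122414608-122414626, minus strand: ctcaGcagcttgtcaTccT
V3LHS_330806, WDR5, chr9:134156564-134156582, plus strand: agattgtacagaaactaca
V3LHS_330806, WDR5B, chr3:122414648-122414666, minus strand: agattgtGcagaaaTtaca

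The V2LHS_140181 target was an exact match in exon 14 of WDR5 and had 3 mismatches in WDR5B (A5G, C16T and A19T). The V3LHS_330806 target was an exact match in exon 13 of WDR5 and had 2 mismatches in WDR5B (A8G and C15T). All 4 sites lie in coding sequence. In RBBP5, ASH2L and DPY30 the closest window had at least 5 mismatches to either target. The V2LHS_140181 target also matched the unnamed gene ENSG00000224097 exactly, which held at most 9 reads in any library.

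Total counts ranged from 17485841 to 119667013 per library. Levels are given as TMM-scaled CPM (each gene's count relative to its library's total), so they are shares of each library's RNA, and fewer cells of a kind and less RNA per cell cannot be told apart in them. Of the mesenchymal markers, the filament VIM was at 1492 to 2232, FN1 at 105 to 1300 and ZEB1 at 61.9 to 158 CPM. The epithelial cadherin CDH1 and the hormone receptors ESR1 and PGR were at most at 0.600, 0.536 and 0.714 CPM. Other epithelial markers were present, with EPCAM at 4.39 to 10.1 CPM and the keratins KRT8 at 194 to 447, KRT18 at 262 to 501 and KRT19 at 24.3 to 169 CPM. The receptor ERBB2 was at 41.4 to 83.3 CPM. The leukocyte marker PTPRC was at most at 1.06 CPM and the endothelial marker PECAM1 at 0.847 to 4.67 CPM. Averaged over the lines, EPCAM (log2 fold change -0.59), KRT8 (-0.25) and KRT19 (-0.54) fell and KRT18 (0.20), VIM (0.21) and PECAM1 (0.41) rose with shWDR5, while FN1 (0.10), ZEB1 (0.27) and ERBB2 (-0.14) did not pass the test. The part of these markers in the results below was not tested.

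WDR5 fell in every line with shWDR5, to between 14 and 24.4 CPM. In LM2 the shCtrl libraries held 112, 128 and 134 CPM of WDR5, and the shWDR5 libraries held 24.3, 24.4 and 20.5 CPM. In BrM3 the values were 85.4, 93.2 and 79.4 CPM with shCtrl and 20.9, 21.3 and 23.5 CPM with shWDR5. In BoM they were 87.4, 90.3 and 90.3 CPM with shCtrl and 14, 21.1 and 22.1 CPM with shWDR5. The groups did not overlap in any line, and the lowest shCtrl library was 4.60, 3.38 and 3.96 times the highest shWDR5 library in LM2, BrM3 and BoM. The share of all tested genes whose groups do not overlap was not counted.

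The WDR5 log2 fold change was -2.43 for LM2 (SE 0.14, adjusted p = 1.72e-08), -1.97 for BrM3 (SE 0.14, adjusted p = 4.19e-07) and -2.23 for BoM (SE 0.14, adjusted p = 6.32e-08), by edgeR's quasi-likelihood test with Benjamini-Hochberg adjustment. The fitted level that remained was 18.6% of shCtrl for LM2 (95% interval 15.1 to 22.8), 25.5% for BrM3 (20.8 to 31.2) and 21.3% for BoM (17.3 to 26.1). The shWDR5 means of 23.1 ± 2.25, 21.9 ± 1.42 and 19.1 ± 4.40 CPM (SD, n = 3) lay closer together than the shCtrl means of 124.7 ± 11.1, 86.0 ± 6.92 and 89.3 ± 1.69 CPM. WDR5 was the 1 gene of the 5 called in each single line. The share of all tested genes called was 6.33% for LM2, 11.1% for BrM3 and 16.3% for BoM.

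**Figure D1:**
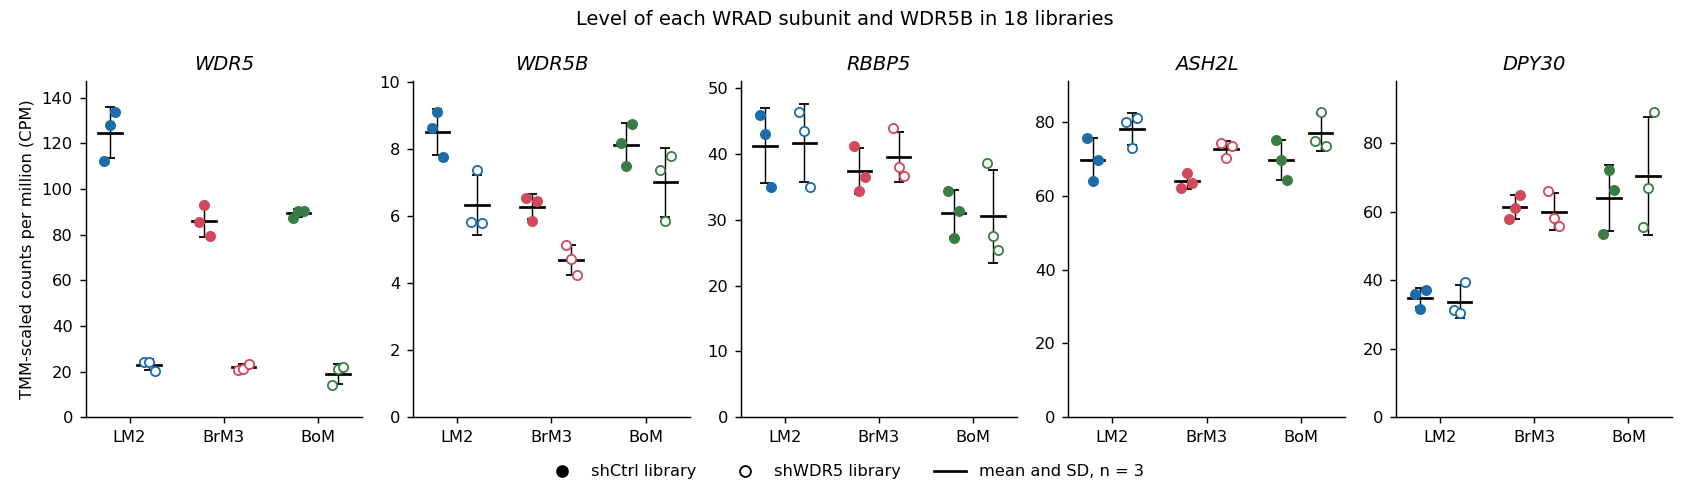
Level of each gene in every library, in TMM-scaled CPM on axes that start at 0, by line; filled points are shCtrl libraries, open points shWDR5 libraries, and bars the mean and SD of 3 libraries. WDR5 separates by hairpin in every line, DPY30 separates LM2 from the other lines, and RBBP5 and ASH2L change little in comparison.

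WDR5B, whose protein shares the WD-repeat fold of WDR5, was lower with shWDR5 when the lines were averaged. In LM2 the shCtrl libraries held 8.65, 9.13 and 7.78 CPM of WDR5B and the shWDR5 libraries 5.84, 7.38 and 5.80 CPM. In BrM3 the values were 6.55, 5.85 and 6.46 CPM with shCtrl and 5.14, 4.72 and 4.25 CPM with shWDR5. In BoM they were 8.18, 7.49 and 8.75 CPM with shCtrl and 7.38, 5.86 and 7.81 CPM with shWDR5. All shWDR5 libraries were below all shCtrl libraries in LM2 and BrM3, and the groups overlapped in BoM. How many of all tested genes separate in this way was not counted, so the separation only describes these libraries.

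Averaged over the 3 lines, WDR5B fell by 0.35 on the log2 scale (SE 0.079, adjusted p = 0.00238), against a log2 fold change of -2.21 for WDR5 (SE 0.081, adjusted p = 9.05e-12). Within lines the WDR5B log2 fold change was -0.41 for LM2 (SE 0.13, adjusted p = 0.0814), -0.43 for BrM3 (SE 0.14, adjusted p = 0.0567) and -0.21 for BoM (SE 0.14, adjusted p = 0.321), and none of these passed the threshold. With each library's dependence on GC content removed, WDR5B passed it in LM2 (adjusted p = 0.0250) and BrM3 (adjusted p = 0.0166), and by DESeq2 in BrM3 (adjusted p = 0.0414). Of 25 other settings, WDR5B was called in 2 for LM2, 6 for BrM3 and 0 for BoM. With no filter on low counts its adjusted p was 0.357 in LM2 and 0.335 in BrM3. The BoM value was -0.32 with the GC content removed (adjusted p = 0.0591) and -0.098 without BoM shWDR5 replicate 2 (adjusted p = 0.704). The average remained called in all 24 other settings, with a log2 fold change between -0.40 and -0.31.

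The reads behind WDR5B were few, 90 to 956 per library, against 364 to 16459 for WDR5. FAM162A, a gene on the opposite strand, shares 489 bases of exon with WDR5B and held 27.9 to 36.1 CPM as group means. FAM162A was not called for the knockdown in any line or in their average (log2 fold change 0.15, adjusted p = 0.210). Libraries were made with a stranded kit, and whether the counting used strand is not given in the sources used here. Of the 50-base windows of WDR5B transcripts, 1.01% occur in another gene, and none of those genes is WDR5.

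Levels of different genes were compared per kilobase of merged exons (RPKM). Per kilobase, WDR5 was the more abundant of the paralogs in every library. In shCtrl cells WDR5 stood at 34.3 ± 3.05, 23.7 ± 1.90 and 24.6 ± 0.466 RPKM in LM2, BrM3 and BoM, and WDR5B at 2.02 ± 0.162, 1.49 ± 0.0903 and 1.93 ± 0.150 RPKM (SD, n = 3). With shWDR5, WDR5 stood at 6.35 ± 0.618, 6.02 ± 0.391 and 5.24 ± 1.21 RPKM, still above WDR5B at 1.5 ± 0.214, 1.12 ± 0.106 and 1.66 ± 0.244 RPKM.

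WDR5B therefore made up 5.59% ± 0.746 of the summed RPKM of both paralogs in LM2 shCtrl cells, 5.96% ± 0.740 in BrM3 and 7.28% ± 0.545 in BoM. With shWDR5 its share was 19.1% ± 1.81 for LM2, 15.7% ± 2.05 for BrM3 and 24.6% ± 6.06 for BoM. The share rose while the RPKM of WDR5B itself did not, since WDR5 fell further. The widest spread was in BoM, where the 3 shWDR5 libraries gave shares of 31.2, 19.3 and 23.4%, and the first of them was the library with 14 CPM of WDR5.

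**Figure D2:**
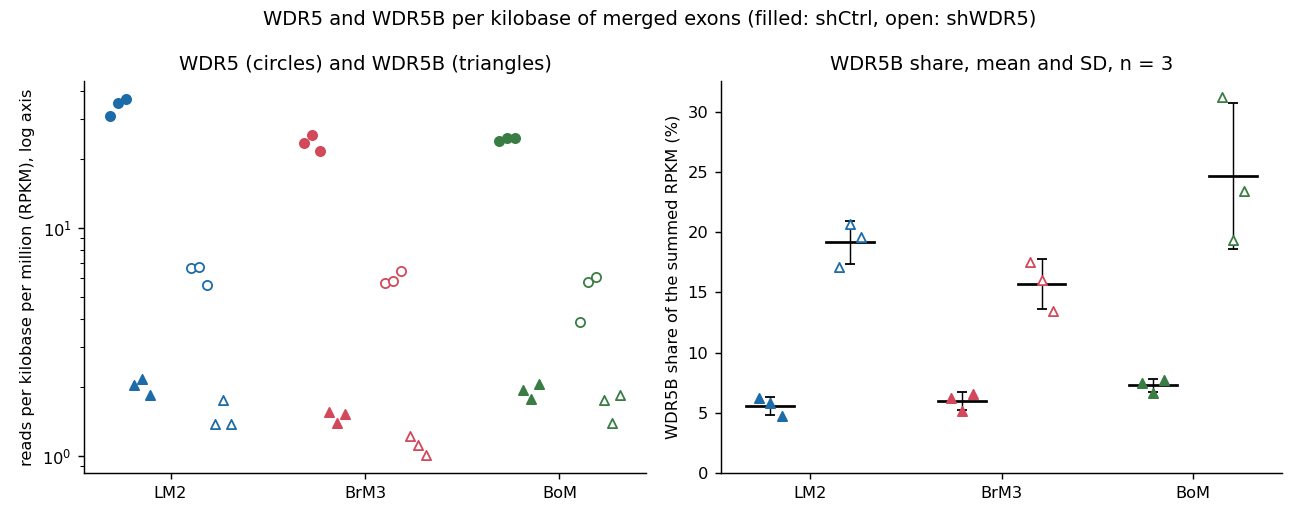
Left, RPKM of WDR5 (circles) and WDR5B (triangles) in each library on a log axis; right, the share of WDR5B in their summed RPKM with the mean and SD of 3 libraries, with filled points for shCtrl and open points for shWDR5. WDR5 stays above WDR5B in all 18 libraries, and the WDR5B share rises from 5.59 to 7.28% in shCtrl means to 15.7 to 24.6% in shWDR5 means.

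RBBP5 (ENSG00000117222, chr1:205086142-205122015, minus strand) binds WDR5 directly and nucleates the module, and its RNA did not pass the test in any knockdown comparison. In LM2 it stood at 45.9, 43.0 and 34.9 CPM with shCtrl and 46.5, 43.5 and 35.1 CPM with shWDR5. In BrM3 it stood at 41.2, 34.4 and 36.6 CPM with shCtrl and 44, 38.1 and 36.7 CPM with shWDR5. In BoM it stood at 34.4, 27.3 and 31.4 CPM with shCtrl and 38.6, 27.5 and 25.5 CPM with shWDR5. The groups overlapped in all 3 lines. The average log2 fold change was 0.03, with a 95% interval of -0.16 to 0.22 and an adjusted p of 0.846.

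ASH2L (ENSG00000129691, chr8:38105493-38144076, plus strand), which stimulates the methyltransferase together with RBBP5, was slightly higher with shWDR5. In LM2 it stood at 75.6, 63.9 and 69.8 CPM with shCtrl and 79.97, 73.0 and 81.1 CPM with shWDR5. In BrM3 it stood at 62.0, 66.2 and 63.4 CPM with shCtrl and 74.4, 70.2 and 73.5 CPM with shWDR5. In BoM it stood at 75.2, 69.7 and 64.2 CPM with shCtrl and 74.9, 82.8 and 73.4 CPM with shWDR5. The shWDR5 libraries were above all shCtrl libraries in BrM3, and the groups overlapped in LM2 and BoM. Here too the share of all tested genes that separate was not counted.

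On average over the lines ASH2L rose by 0.16 on the log2 scale (SE 0.050, 95% interval 0.059 to 0.27, adjusted p = 0.0166). The values in single lines were 0.16, 0.19 and 0.14 in LM2, BrM3 and BoM, with adjusted p-values of 0.315, 0.189 and 0.280. Without a filter on low counts the average no longer passed (adjusted p = 0.0728), and in the other 23 settings it did. STAR, which overlaps 338 bases of ASH2L exon on the opposite strand, had at most 7 reads in a library.

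DPY30 (ENSG00000162961, chr2:31867809-32039805, minus strand) is the smallest subunit and binds ASH2L as a dimer, and it did not pass the test in any knockdown comparison. In LM2 it stood at 35.9, 31.7 and 37.2 CPM with shCtrl and 31.3, 30.5 and 39.4 CPM with shWDR5. In BrM3 it stood at 57.9, 61.0 and 65.0 CPM with shCtrl and 66.0, 58.2 and 55.7 CPM with shWDR5. In BoM it stood at 53.4, 72.1 and 66.3 CPM with shCtrl and 55.4, 66.7 and 89.2 CPM with shWDR5. The groups overlapped in each line, and BoM shWDR5 had the widest spread of any group of this gene (SD 17.2 CPM). The average log2 fold change was 0.02, with a 95% interval of -0.17 to 0.20 (adjusted p = 0.903).

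In the average over the lines 3 of the 5 genes were thus called, WDR5 and WDR5B lower and ASH2L higher. Of all tested genes 35.8% were called in that comparison, 15.8% higher and 20.0% lower, so a call there was common. The count includes WDR5, the hairpin's target, whose fall was the aim of the design. The median log2 fold change of the 5 genes, target included, was 0.02, which is the value of DPY30. For all tested genes it was 0.00.

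**Figure D3:**
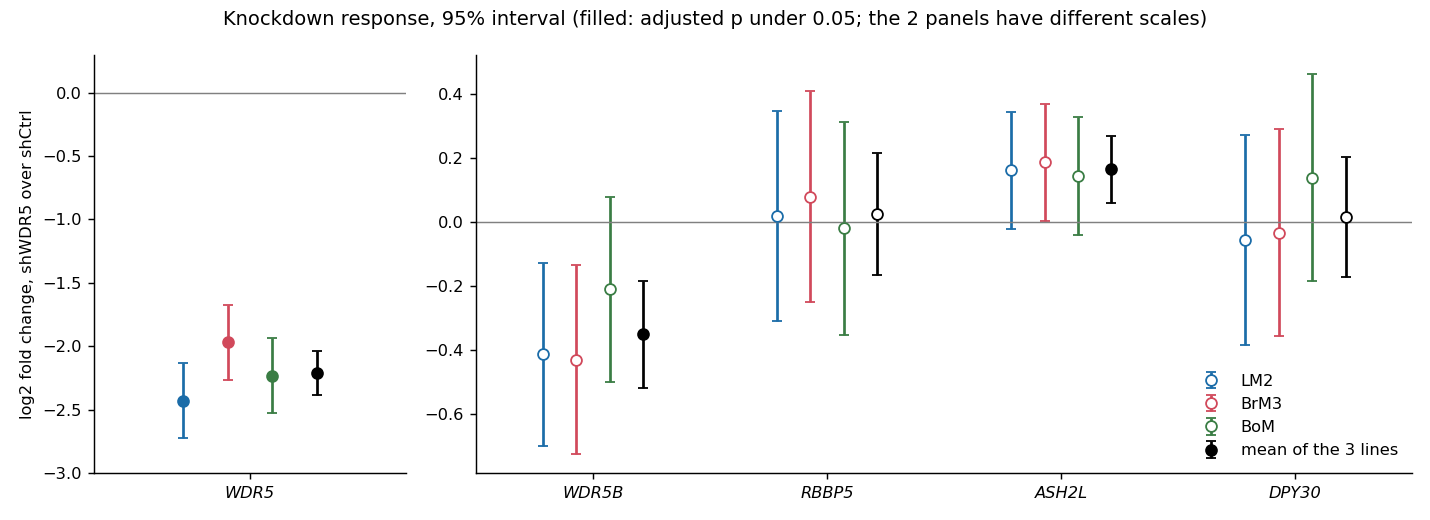
Log2 fold change of shWDR5 over shCtrl with its 95% interval, for each line and for the mean of the 3 lines, by edgeR; filled points have an adjusted p under 0.05, and the WDR5 panel has its own scale. WDR5 lies between -2.43 and -1.97 in every line, and the other 4 genes lie between -0.43 and 0.19.

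Whether the response differed between lines was tested as a difference of the log2 fold changes. None of the 5 genes was called for any pair of lines by edgeR or by DESeq2. At an unadjusted p under 0.05, 1 of 5 passed for BrM3 against LM2 and 0 of 5 for each of the other pairs. That gene was WDR5, whose log2 fold change in BrM3 minus that in LM2 was 0.46 (95% interval 0.059 to 0.86, adjusted p = 1.00). Of all tested genes, 0.00810% were called for BrM3 against LM2, 0% for BoM against LM2 and 0.00810% for BoM against BrM3. At the unadjusted threshold the shares of all tested genes were 3.01%, 5.18% and 2.93%, and by DESeq2 0.146%, 0.332% and 0.0324%. The difference for WDR5B was -0.02 between BrM3 and LM2 (95% interval -0.42 to 0.39) and 0.20 between BoM and LM2 (95% interval -0.20 to 0.61).

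The lines were also compared with each other in shCtrl cells, and these comparisons use the same shCtrl libraries as the knockdown comparisons. Between BrM3 and LM2 3 of the 5 genes were called, beside 47.6% of all tested genes. Between BoM and LM2 also 3 of 5 were called, beside 51.8%, and between BoM and BrM3 1 of 5, beside 37.5%. With 5 genes, these counts were near the shares of all genes.

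DPY30 had the largest of these differences. Its shCtrl mean was 34.9 ± 2.91 CPM in LM2, 61.3 ± 3.55 in BrM3 and 63.9 ± 9.59 in BoM (SD, n = 3). LM2 lay below the other lines, by 0.81 on the log2 scale against BrM3 (SE 0.15, adjusted p = 3.51e-04) and 0.87 against BoM (SE 0.15, adjusted p = 1.59e-04). BoM and BrM3 differed by 0.06 (adjusted p = 0.780). The shWDR5 libraries showed the same order, with means of 33.7 ± 4.91 CPM in LM2, 60.0 ± 5.39 in BrM3 and 70.4 ± 17.2 in BoM.

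DPY30 shares 1385 bases of exon with MEMO1 on the same strand, and 51.6% of the 50-base windows of its transcripts also occur in other genes. How the counting treated reads in those bases is not given in the sources used here, so the level of DPY30 is uncertain. MEMO1 itself held 17 to 126 reads per library, with shCtrl means of 0.903, 1.48 and 1.27 CPM in LM2, BrM3 and BoM.

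WDR5 was highest in LM2, the line selected in the lung. Its log2 difference from LM2 was -0.54 in BrM3 (SE 0.13, adjusted p = 0.00287) and -0.48 in BoM (SE 0.13, adjusted p = 0.00552), and BrM3 and BoM did not pass the test against each other (0.06, adjusted p = 0.769). After removal of each library's dependence on GC content the difference between BoM and LM2 was -0.30 (adjusted p = 0.0402).

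WDR5B was lowest in BrM3, at 6.29 ± 0.381 CPM against 8.52 ± 0.683 in LM2 and 8.14 ± 0.634 in BoM (SD, n = 3). Its log2 difference was -0.43 for BrM3 against LM2 (SE 0.13, adjusted p = 0.0129) and 0.37 for BoM against BrM3 (SE 0.14, adjusted p = 0.0414). LM2 and BoM did not pass the test against each other (-0.07, adjusted p = 0.704). The first call was lost without LM2 shCtrl replicate 2 (adjusted p = 0.0567), without BrM3 shCtrl replicate 2 (adjusted p = 0.0561) and with no filter on low counts (adjusted p = 0.0973). The second was lost when any 1 of 6 libraries was left out, with adjusted p-values up to 0.141, and with filterByExpr (adjusted p = 0.0575) or no filter (adjusted p = 0.260). Those libraries were BrM3 shCtrl replicates 1, 2 and 3, BoM shCtrl replicates 1 and 3, and BrM3 shWDR5 replicate 2.

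RBBP5 was lower in BoM than in LM2, with a log2 difference of -0.41 (SE 0.16, adjusted p = 0.0363), with BrM3 between them and not passing the test against either (BrM3 against LM2 -0.14, adjusted p = 0.481, and BoM against BrM3 -0.27, adjusted p = 0.187). The call was lost without LM2 shCtrl replicate 1 (adjusted p = 0.119) or 2 (adjusted p = 0.0981) and without BoM shCtrl replicate 2 (adjusted p = 0.139) or 3 (adjusted p = 0.0726). ASH2L had no call between lines. Its shCtrl means were 69.7 ± 5.83 CPM for LM2, 63.9 ± 2.12 for BrM3 and 69.7 ± 5.49 for BoM, and the 95% interval of BoM against LM2 was -0.18 to 0.18.

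The tested genes within 2 Mb of each of the 5 genes were also compared between lines, a window chosen after the values of the 5 genes were seen. Around WDR5, 28 of 33 neighbours were called lower in BrM3 than in LM2 and 31 of 33 in BoM than in LM2. Of all tested genes 23.4% and 25.8% were called lower in these comparisons. The neighbours' median log2 difference was -0.85 in BrM3 and -0.88 in BoM, below that of WDR5 itself. Around DPY30, 11 of 15 neighbours were called higher in BrM3 and 10 of 15 in BoM, beside 24.2% and 25.9% of all tested genes. Their medians were 0.63 and 0.59 against 0.81 and 0.87 for DPY30. Of the 24 neighbours of WDR5B, 13 were called lower and 2 higher in BrM3 (median -0.31). Of the 30 neighbours of RBBP5, 14 were called lower and 6 higher in BoM (median -0.23). For ASH2L, 7 of 20 neighbours were called lower and 4 higher in BrM3, and 5 lower and 4 higher in BoM. With shWDR5, 3 of the 33 neighbours of WDR5 were called higher and 6 lower on average over the lines. Of all tested genes 15.8% and 20.0% were called higher and lower there. The neighbours' median was -0.06. WDR5, the hairpin's target, had the lowest log2 fold change of all tested genes, so every neighbour had to lie above it. The part of a shared chromosomal position in the line differences was not tested.

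**Figure D4:**
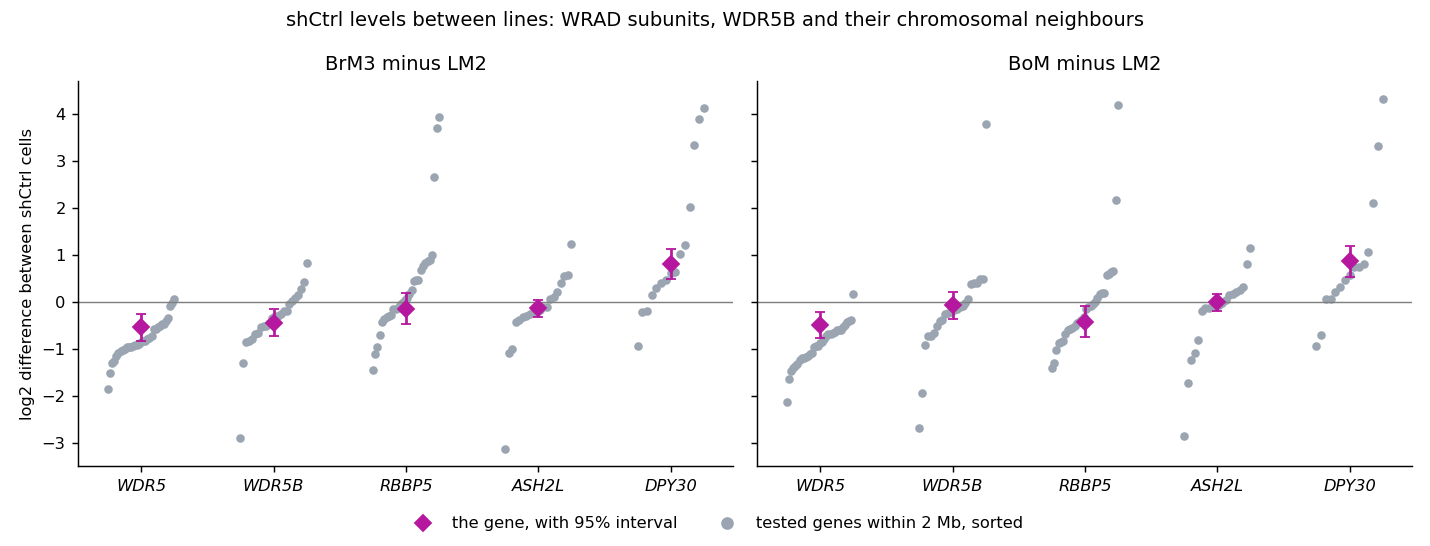
Log2 difference between the shCtrl cells of BrM3 and LM2 (left) and of BoM and LM2 (right) for each gene with its 95% interval (diamonds) and for the tested genes within 2 Mb of it, sorted (grey points). Most neighbours of WDR5 lie below 0, with medians of -0.85 and -0.88, and most neighbours of DPY30 above 0, with medians of 0.63 and 0.59.

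Per kilobase the subunits were not equally abundant. In LM2 shCtrl cells WDR5 led at 34.3 RPKM, followed by DPY30 at 12.8 ± 1.07, ASH2L at 12.3 ± 1.03 and RBBP5 at 9.38 ± 1.29 RPKM (SD, n = 3). In BrM3 DPY30 stood at 22.5 ± 1.30, ASH2L at 11.3 ± 0.374 and RBBP5 at 8.49 ± 0.798 RPKM, and in BoM at 23.5 ± 3.52, 12.3 ± 0.969 and 7.04 ± 0.814 RPKM. DPY30 and ASH2L in LM2, and WDR5 and DPY30 in BrM3 and BoM, lay within each other's spread. With shWDR5, WDR5 fell below all 3 partners, to group means of 5.24 to 6.35 RPKM against 6.94 to 9.46 for RBBP5, 12.8 to 13.8 for ASH2L and 12.4 to 25.8 for DPY30. BoM shWDR5 replicate 3 was an exception, with 6.07 RPKM of WDR5 and 5.79 RPKM of RBBP5. By the longest or the MANE transcript, RBBP5 was also below WDR5 in BoM shWDR5 replicate 2 (ratio 0.944), beside replicate 3 (ratio 0.835).

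The ratio of RBBP5 to WDR5 in RPKM was 0.277 ± 0.0609 with shCtrl and 1.49 ± 0.0833 with shWDR5 for LM2, 0.361 ± 0.050 and 1.5 ± 0.226 for BrM3, and 0.287 ± 0.0379 and 1.44 ± 0.731 for BoM. The order rests on the transcript length used. DPY30 has merged exons of 2725 bases but a reference (MANE) transcript of 688 bases, and by that transcript it stood at 50.8, 89.1 and 92.9 RPKM in LM2, BrM3 and BoM shCtrl cells, above WDR5 in all 3.

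Other subunits of the complexes that hold WDR5 were counted from 4 lists of 37 genes, all of which were tested. Of the 6 catalytic subunits (KMT2A, KMT2B, KMT2C, KMT2D, SETD1A and SETD1B) none was called by edgeR in any single line, while 0, 1 and 2 of 6 passed at an unadjusted p under 0.05 and 0, 0 and 1 by DESeq2 in LM2, BrM3 and BoM. Of all tested genes 20.3%, 25.2% and 30.3% passed at that unadjusted p and 9.46%, 14.6% and 20.4% by DESeq2 in the same order. Averaged over the lines SETD1B rose by 0.37 (SE 0.095, adjusted p = 0.00570), with group means of 26.8, 30.5 and 18.4 CPM in shCtrl and 32.4, 39.6 and 25.5 CPM in shWDR5 cells of LM2, BrM3 and BoM. The list's median was 0.11 in that average.

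Of the 12 other subunits of KMT2 and SETD1 complexes, some of them shared between complexes, 1 fell in LM2, 1 fell in BrM3, and in BoM 2 fell and 1 rose. For comparison, 4.85% of all tested genes fell and 1.48% rose in LM2. The shares were 8.10% and 2.97% for BrM3, and 10.8% and 5.41% for BoM. MEN1, which encodes menin of the KMT2A and KMT2B complexes, fell by 0.64 in LM2 (SE 0.14, adjusted p = 0.0121) and by 0.65 in BoM (SE 0.14, adjusted p = 0.00492), and stood at -0.34 for BrM3 (adjusted p = 0.143). Its group means went from 60.0, 57.9 and 59.3 CPM in shCtrl to 38.8, 45.7 and 37.7 CPM in shWDR5 cells of LM2, BrM3 and BoM. PAXIP1, of the KMT2C and KMT2D complexes, fell by 0.31 in BrM3 (adjusted p = 0.0179) and by 0.31 in BoM (adjusted p = 0.0126), and stood at -0.17 in LM2 (adjusted p = 0.248). KDM6A, the H3K27 demethylase of the same complexes, rose by 0.36 in BoM (adjusted p = 0.0110) and stood at 0.20 and 0.14 in LM2 and BrM3 without passing the test. MEN1 in LM2 lost its call without LM2 shCtrl replicate 2 or 3 or LM2 shWDR5 replicate 1 or 2 (adjusted p = 0.0567 to 0.0763) and with the line fitted alone (adjusted p = 0.133). PAXIP1 lost it in BrM3 with filterByExpr (adjusted p = 0.0670), with no filter (adjusted p = 0.411) and without BrM3 shCtrl replicate 2 or 3 or BrM3 shWDR5 replicate 3 (adjusted p = 0.0685 to 0.0742). In BoM PAXIP1 lost it with no filter (adjusted p = 0.249), with the line fitted alone (adjusted p = 0.141) and without BoM shCtrl replicate 1 or BoM shWDR5 replicate 2 (adjusted p = 0.0540 and 0.0539). KDM6A in BoM lost it with no filter (adjusted p = 0.125), with the line fitted alone (adjusted p = 0.106), without BoM shCtrl replicate 2 (adjusted p = 0.0624) and with the GC content removed, where its log2 fold change was 0.19 (adjusted p = 0.135). For the difference of these responses between lines, 0 of 12 genes were called by edgeR or DESeq2 or passed at an unadjusted p under 0.05.

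Of the 7 subunits of the NSL acetyltransferase complex 1 rose in each line, where 1.48%, 2.97% and 5.41% of all tested genes rose. That subunit was KANSL2. KANSL2 rose by 0.35 for LM2 (SE 0.091, adjusted p = 0.0300), by 0.33 for BrM3 (SE 0.092, adjusted p = 0.0293) and by 0.29 for BoM (SE 0.092, adjusted p = 0.0383). Its group means went from 42.4, 36.3 and 46.3 CPM in shCtrl to 53.7, 45.5 and 56.6 CPM in shWDR5 cells. The calls in single lines were lost in each line with no filter on low counts (adjusted p = 0.110 to 0.207) and in LM2 and BoM with the line fitted alone (adjusted p = 0.112 and 0.104). In LM2 the call was also lost without LM2 shCtrl replicate 2 or 3 or LM2 shWDR5 replicate 1 or 2 (adjusted p = 0.105 to 0.158). In BrM3 it was lost without any 1 of the BrM3 shCtrl replicates or BrM3 shWDR5 replicate 2 or 3 (adjusted p = 0.0708 to 0.121). In BoM it was lost without BoM shCtrl replicate 1 or 2, BoM shWDR5 replicate 2 or 3, LM2 shWDR5 replicate 2, or BrM3 shCtrl replicate 1 or 3 (adjusted p = 0.0522 to 0.133). The average over the lines, 0.32 (adjusted p = 1.70e-04), was called in all 24 other settings. The NSL median was 0.08 in the average over the lines.

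Of the 12 ATAC subunits edgeR called 0 in LM2, 0 in BrM3 and 1 in BoM, which fell. At an unadjusted p under 0.05, 3, 3 and 4 of 12 passed in the same order, and by DESeq2 1, 0 and 4. Over all tested genes the shares at these settings were those given above for the catalytic subunits. In the average over the lines 5 of 12 rose and 1 fell, beside 15.8% and 20.0% of all tested genes. POLE4, a histone-fold subunit also found in DNA polymerase epsilon, rose by 0.45 (SE 0.10, adjusted p = 0.00225), DR1, also a subunit of the repressor NC2, by 0.30 (SE 0.074, adjusted p = 0.00490), and YEATS2, a reader of acetylated histones, by 0.23 (SE 0.068, adjusted p = 0.0154). The ATAC median was 0.15, beside 0.00 for all tested genes.

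**Figure D5:**
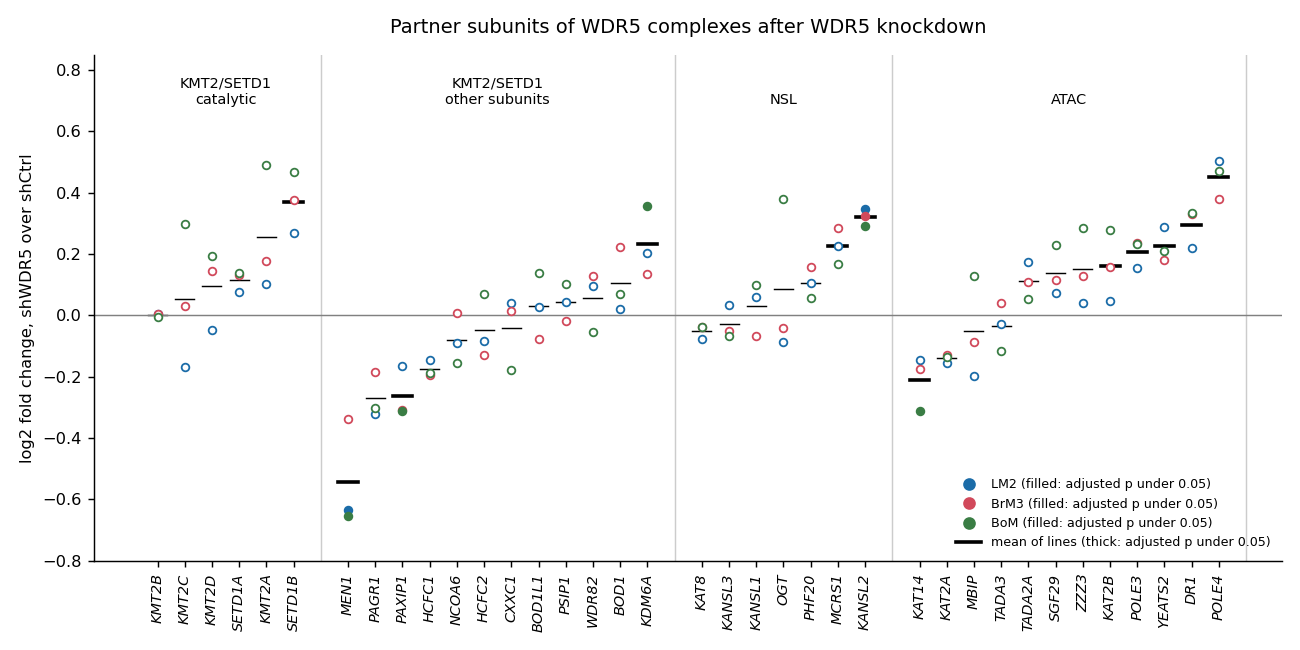
Log2 fold change of shWDR5 over shCtrl for the 37 partner subunits in 4 lists; points are the 3 lines, filled where the adjusted p is under 0.05, and short bars the mean of the lines, thick where its adjusted p is under 0.05. MEN1 is lowest, at -0.54 in the mean, POLE4 highest, at 0.45, and KANSL2 is filled in all 3 lines.

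For each of the 5 genes the 3 tested genes with the most similar pattern were found by the Pearson correlation of log2 CPM over the 18 libraries, which fall into 6 groups by line and hairpin and share those contrasts. They are a description, and 12338 genes were compared with each. Because the genes were chosen by their pattern in these libraries, a knockdown response like that of the matched gene is built into the choice. Near to WDR5 were PYGL, a glycogen phosphorylase (r = 0.98), and RPL34, a protein of the large ribosomal subunit (r = 0.95), which had log2 fold changes of -1.68 and -0.93 with shWDR5 in the average over the lines. Nearest to WDR5B were BBOF1, WDR17 and SMARCE1, with r from 0.90 to 0.91 and average log2 fold changes of -0.48, -0.62 and -0.34. Nearest to RBBP5 were ITPRIPL2, GIGYF2 and ETV3, with r from 0.96 to 0.98, and nearest to DPY30 were ISCU, GEMIN6 and POP5, with r from 0.97 to 0.99. The 6 genes nearest to RBBP5 and DPY30 had log2 fold changes between -0.03 and 0.06 with shWDR5 on average. The closest genes to ASH2L were less alike, GPHN, SYAP1 and BUD31, with r from 0.80 to 0.82, and their log2 fold changes lay between 0.17 and 0.28.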

How the data were processed

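Stranded mRNA libraries were sequenced from both ends, and the authors mapped and counted the reads with STAR 2.7.0 on hg38 and deposited unnormalised gene counts, which are used here. The authors' own fold changes and adjusted p-values from DESeq2 were not used. Spike-in rows number 0 in the table, and 0 sample columns were left unused. Libraries were grouped by their titles. The titles name BrM, the cell line label BrM2 and the methods BrM3, which is used here, and the source labels, which disagree with the titles for most libraries, were not used.

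Counts were scaled by TMM and fitted with edgeR 4.0.16 in R 4.3.3 (6 groups, 12 residual degrees of freedom, robust quasi-likelihood F tests). Tested genes had a highest normalised count above 112, the threshold of 100 tried, between 1 and 200, with the highest smoothed Jaccard index between replicates (0.970). Benjamini-Hochberg adjustment ran over all 12339 tested genes, and a gene was called under 0.05. Standard errors were derived from the F statistic, with 95% intervals. All tests were two-sided. Replicate libraries differed by more than sampling noise (chi-square per gene 5.07 to 88.8), so each counted once. Gene models are GENCODE 44 on GRCh38, with 58472 of 58815 genes matched, and their release differs from that of the counts.

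Alternatives were DESeq2 1.42.0, its size factors in edgeR, filterByExpr (18428 genes), no filter (41236 genes), a replicate block, a GC offset (GC known for 99.8% of tested genes), each line alone, each library left out, and other transcript lengths, of which the MANE transcript was chosen after seeing the data. The fit was also run on counts simulated independently for each library, and no result given here rests on that run. The 5 genes, the partner lists and the tests were chosen with earlier results of these data known. Named partner genes are those called in all 3 lines in the same direction or, failing that, up to 3 called genes, taken by the size of their mean log2 fold change. Of the genes with a pattern most similar to that of WDR5, 1 is not reported here.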

Additional observations from a re-analysis of the deposited data

How the results depend on the processing

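Among the 5 genes, WDR5 kept its direction and its call in all alternatives for the knockdown and for both lines against LM2, as did DPY30 for both lines against LM2. WDR5B in LM2 passed the test with the GC correction (-0.42), and in BrM3 with DESeq2 (-0.43) and the GC correction (-0.44). WDR5B between BrM3 and LM2 no longer passed with no filter (-0.41), nor did WDR5B between BoM and BrM3 with filterByExpr (0.36) or no filter (0.34), or ASH2L averaged over the lines with no filter (0.19). Of 2277 values of the other named genes under these alternatives, 63 lost a call, 50 gained one and 0 changed direction where either value was called. The cause was not tested.

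Leaving out 1 library at a time gave -0.49 to -0.35 for WDR5B in BrM3, -0.50 to -0.38 for WDR5B between BrM3 and LM2, 0.32 to 0.43 between BoM and BrM3, and -0.52 to -0.32 for RBBP5 between BoM and LM2. WDR5B in BrM3 passed the test without BrM3 shWDR5 replicate 1 (adjusted p = 0.0471) or BoM shWDR5 replicate 2 (0.0444) or 3 (0.0489). The count of genes called was then 383 to 1020 in LM2, 775 to 1645 in BrM3 and 1194 to 2390 in BoM, and 0 to 2, 0 to 6 and 0 to 1 for the differences BrM3 against LM2, BoM against LM2 and BoM against BrM3. The count fell by more than 1.5 times without LM2 shCtrl replicates 2 or 3, LM2 shWDR5 replicates 1 or 2, any BrM3 shCtrl replicate, BrM3 shWDR5 replicates 2 or 3, or BoM shCtrl replicate 2.

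Each line fitted alone called 283 genes in LM2 and 947 in BoM, and the GC correction called 1604 in LM2 and 2538 in BrM3. For the 3 differences in the same order DESeq2 called 18, 41 and 4 genes, no filter 16, 27 and 9, and the GC correction 14 and 20 in the first and second, while filterByExpr called 0 in the first. None of these fits called a difference between lines for any of the 5 genes.

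The replicate numbers come from the titles, and 7 of 9 same-numbered pairs had deviations that correlated above 0.1 (-0.16 to 0.72), while pairing was taken to need all 9, so the numbers were not taken to pair the samples. Of 18 libraries, 12 correlated best with the library of their own number. With a replicate block 1498, 2382 and 3264 genes were called in LM2, BrM3 and BoM and 9, 25 and 0 for the differences, WDR5B passed the test in LM2 (-0.43) and BrM3 (-0.43), and RBBP5 passed it between BoM and BrM3 (-0.27).

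By the longest transcript, shCtrl levels in LM2, BrM3 and BoM were 39.5, 27.2 and 28.3 RPKM for WDR5, 23.9, 21.9 and 23.9 RPKM for ASH2L and 23.0, 40.3 and 42.1 RPKM for DPY30. By the MANE transcript DPY30 stood at 50.8, 89.1 and 92.9 RPKM and the others at the same values.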
